A study of Mus musculus with 6 samples.

Results

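Chemokines are small secreted proteins that steer the movement of leukocytes, and they act through receptors of the G protein-coupled family. CC, CXC, XC and CX3C chemokines are named for the spacing of their first cysteines, and atypical receptors bind chemokines without the usual signal. In the spleen these proteins place dendritic cells (DC), the antigen-presenting cells, near T cells and B cells, and DC themselves release chemokines that draw lymphocytes in. The 43 genes described here comprise 20 receptors and 23 chemokines, taken by name from the 19938 genes that had a probe set of their own on the array. Each gene was read from its brightest probe set by mean over all arrays, and a gene was counted as measured when its log2 value reached 6.5, the background level in the methods, in at least 1 array.

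The RNA came from CD4+ DC sorted from the spleens of 6 male mice aged 6 weeks, with 1 array per mouse. The 3 wild-type (WT) mice were Runx3 +/+ and the 3 mutants were Runx3-/-, a germline loss of the transcription factor Runx3 that affects all cells of the animal. Each of 3 litters gave a WT and a Runx3-/- mouse, and array numbers 1 to 3 name the litter. Whether the sort also used Esam, which the labels mention, is not stated, and the labels give no strain. Cells were enriched on beads and sorted as CD11c+ MHCII+ cells by CD4 and CD8.

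The arrays were similar in level, with median log2 values of 6.57 to 6.65. Runx3 itself stood at 11.24, 11.22 and 11.11 in WT and at 9.16, 9.30 and 9.16 in Runx3-/- DC, a log2 change of -1.98 (SE 0.08, limma adjusted p = 0.0027, or 0.061 with the litter as a replicate block and 0.00069 to 0.061 over 15 alternatives). All 14 measured markers of CD4+ DC were above background in every array, with Cd4 at 12.45 to 12.82. Without overlap between genotypes 7 of them were lower and 2 higher in the mutants, where 14.9% and 7.48% of all tested probe sets were. Irf4 passed an adjusted p of 0.05 as lower, where 0.700% of all tested probe sets did. Its log2 change was -0.62 (limma adjusted p = 0.043, or 0.102 with the replicate block). Runx3-/- 3 stood apart from the other mutants in several markers of plasmacytoid DC, the interferon-producing DC. Siglech, a surface lectin of those cells, was at 7.46, 8.18 and 10.18 in Runx3-/- 1 to 3 against 7.40 to 7.45 in WT. The mean log2 value of 10 such markers was 8.26 in Runx3-/- 3, 7.54 and 7.64 in the other mutants and 7.41 to 7.47 in WT, and Pacsin1 and Dntt were below background in all arrays. Not all of the list followed this order. Ptprcap was at 8.74, 8.75 and 8.66 in Runx3-/- 1 to 3, lowest in Runx3-/- 3, and Spib differed little between them (10.12, 10.10 and 10.28). Results of chemokine genes that rest on that array are therefore given with and without it. In bulk RNA, fewer cells of a type and less RNA per cell cannot be told apart.

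CD4+ DC had measured RNA for 10 of the 20 receptors and 13 of the 23 chemokines. Values of 21 of these 23 genes were above background in all 6 arrays. The exceptions were the chemokine Ccl4, which passed it in Runx3-/- 1 alone, and the platelet chemokine Ppbp, which reached 6.66 in WT 2 alone. Just below the limit were Ccl24, with a highest value of 6.25, Cxcr6 with 6.20 and Pf4 with 6.07. The 20 genes that were not measured lay between 4.65 and 6.25 in all arrays. Among receptors these were Ccr1, Ccr8, Ccr10, Cxcr1, Cxcr2, Cxcr5, Cxcr6 and the atypical receptors Ackr2, Ackr3 and Ackr4. Among chemokines they were Ccl2, Ccl7, Ccl17, Ccl24, Cxcl1, Cxcl2, Cxcl12, Cxcl14, Cx3cl1 and Pf4. Neutrophil-attracting Cxcl1 and Cxcl2 were thus below background, as was their receptor Cxcr2, and so was the stromal chemokine Cxcl12.

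In Runx3-/- DC a receptor of myeloid cells, Cx3cr1, rose 2.59-fold, and 11 more chemokine genes were 1.57-fold to 2.17-fold higher without passing after adjustment over all probe sets. Those 11 were the receptors Ccr2, Ccr9, Cxcr4 and Xcr1 and the chemokines Cxcl9, Cxcl10, Cxcl11, Cxcl13, Cxcl16, Ccl9 and Ccl22. Receptors Ccr6 and Ccrl2 and the chemokine Ccl25 were lower, by 1.24-fold to 1.44-fold, again without passing. Among the 11, Ccl9 and Cxcl13 had overlapping genotypes, as did the receptors Ccr3, Ccr7 and Cxcr3 and the chemokines Ccl3, Ccl4, Ccl5, Ccl6 and Ppbp.

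By limma with genotype as the only term, 1 of the 23 measured genes passed an adjusted p of 0.05, where 1.56% of the 19149 tested probe sets did (0.856% higher, 0.700% lower). At an unadjusted p of at most 0.05, 12 were higher and 3 lower, where 15.9% of probe sets passed (5.59% higher, 10.3% lower). A replicate block for the litter left 0, with 11 higher and 3 lower at the same unadjusted p, and the analysis of variance of the methods gave 0, with 8 higher and 2 lower. The methods asked for an unadjusted p no higher than 0.05 together with at least a 1.5-fold change, which 3.95% of all tested probe sets reached, and with the p of limma 12 of the 23 genes were higher and 0 were lower by these thresholds. With the p of the analysis of variance, the test named in the methods, 8 of the 12 passed, and Ccr9, Ccl9, Cxcl9 and Cxcl13 did not. By direction, 2.01% of all tested probe sets were higher and 1.94% lower. The 3 Runx3-/- values lay above the 3 WT values for 10 genes and below them for 3, where 22.4% of all probe sets were apart (7.48% higher, 14.9% lower). Over all probe sets 298 passed the adjusted threshold, against 0 with the block (3430 at the unadjusted p), 0 without WT 1 (1972) and 1 without Runx3-/- 3. In every litter 12 genes were higher and 3 were lower in the mutant, against 16.0% and 27.5% of all probe sets. The median log2 change was 0.65 over the 23 genes and -0.04 over all tested probe sets. These genes also varied more between arrays of a genotype, with a median SD of 0.26 in WT and 0.27 in Runx3-/- DC, against 0.12 and 0.13 over all tested probe sets.

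**Figure D1:**
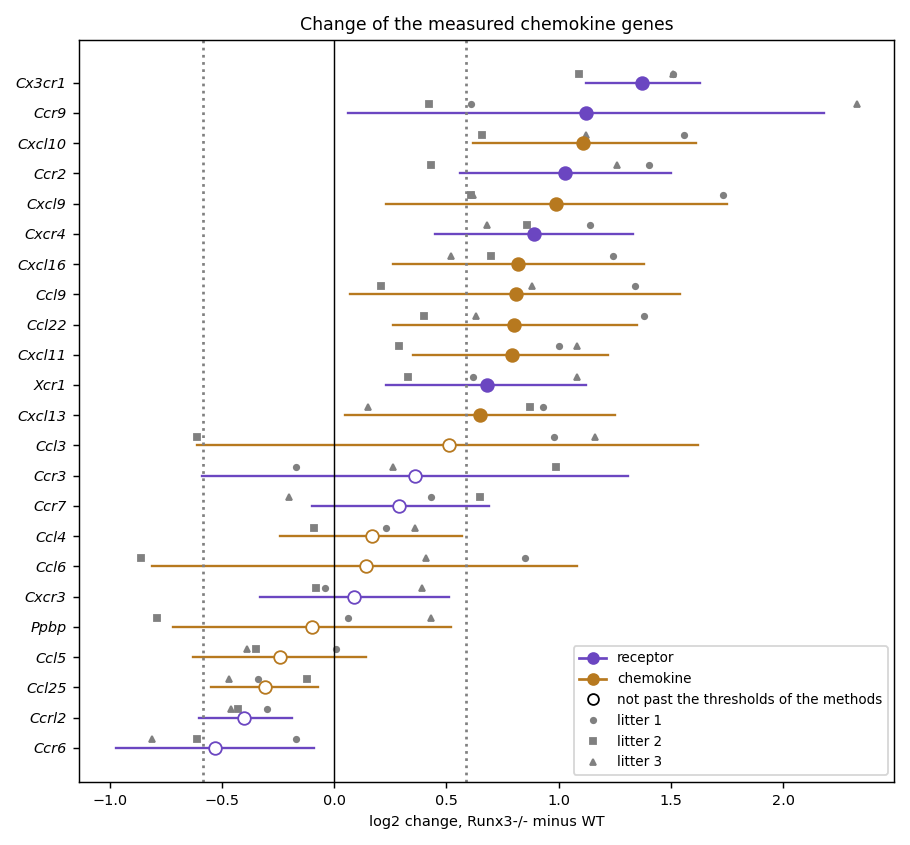
Log2 change of each measured chemokine gene, Runx3-/- minus WT (horizontal axis), with its 95% confidence interval from limma as a line and the difference within each litter as small grey symbols. Filled circles pass the thresholds of the methods with the p of limma, dotted lines mark a change of 1.5-fold, and the 12 filled genes all lie to the right, from Cxcl13 at 0.65 to Cx3cr1 at 1.37.

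The receptors with the smallest p, Cx3cr1 and Ccr2, are known from monocytes and macrophages. The paper also names Cx3cr1 among key genes of WT spleen DC with low Esam. By RT-qPCR it reports higher Cx3cr1 RNA in Esam-high DC that lacked Runx3, a different sort and mutant from those here. Cx3cr1 (probe set 10597743), the receptor of the membrane-bound chemokine Cx3cl1, was at 8.88, 9.17 and 8.99 in WT 1 to 3 and at 10.40, 10.26 and 10.50 in Runx3-/- 1 to 3. All mutant values lay more than 1 log2 unit above the highest WT value, and the litters differed by 1.51, 1.09 and 1.51. Its log2 change was 1.37 (SE 0.10, 95% interval 1.12 to 1.63, adjusted p = 0.013). The adjusted p was 0.074 with the replicate block, 0.091 by the analysis of variance, 0.075 without WT 1 and 0.056 without Runx3-/- 3, and 0.0068 to 0.091 across all 15 alternatives, while the change stayed between 1.31 and 1.45. Its ligand Cx3cl1 was below background in all arrays.

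Ccr2 (probe set 10590631), through which Ccl2 and Ccl7 draw monocytes out of the bone marrow, was at 9.12, 9.65 and 9.39 in WT and 10.52, 10.09 and 10.65 in Runx3-/- DC. The genotypes did not overlap, although the difference in litter 2 was 0.43 against 1.40 and 1.26 in litters 1 and 3. The log2 change of 1.03 (SE 0.19, unadjusted p = 0.0015) did not pass (adjusted 0.068, 0.036 to 0.224 across alternatives). It passed with array weights (0.036) and with a prior that follows the mean level (0.048). Without Runx3-/- 3, its highest array, the log2 change was 0.91 (limma adjusted p = 0.180). Its ligands Ccl2 and Ccl7 were below background.

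Most measured markers of other phagocytes were also higher in the mutants, among them those of red pulp macrophages, which clear old red cells. Of 18 measured red pulp markers 11 passed an adjusted p of 0.05 as higher, where 0.856% of all tested probe sets did, and with the replicate block 0 of these 11 passed (adjusted p from 0.074 to 0.104). Cd5l among the 11 and Siglec1 among the 18 were below background in all WT arrays. They counted as measured through mutant arrays alone. The genotypes overlapped for Adgre1 (log2 change 0.01) and Hmox1 (0.22) of the red pulp list. The mean over 20 markers was 8.03 to 8.43 in WT and 9.26 to 9.43 in Runx3-/- arrays, with Cd163 and Marco below background. Of 8 measured monocyte markers 0 passed by limma (7 were higher at that p before adjustment, where 5.59% of all tested probe sets were), and the mean over 11 markers was 8.16 to 8.34 in WT and 8.78 to 8.84 in Runx3-/- arrays. F13a1, Vcan and Chil3 among them were below background throughout. Fcgr1 and Treml4 were on both the red pulp and the monocyte list, so the counts are not separate. The part of such phagocytes in the values of Cx3cr1 and Ccr2 was not tested.

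Cxcr4 and Xcr1 were higher in every litter. Cxcr4 (probe set 10357472), the receptor of Cxcl12 that holds cells in the bone marrow, was at 9.29, 9.38 and 9.09 in WT and 10.43, 10.24 and 9.77 in Runx3-/- DC. Its genotypes did not overlap, with the largest difference, 1.14, in litter 1 and the smallest, 0.68, in litter 3. The log2 change was 0.89 (SE 0.18, unadjusted p = 0.0024, adjusted p = 0.084, 0.033 to 0.262 across alternatives), and it passed with array weights (0.033). Without Runx3-/- 3 it was 1.08 (adjusted p = 0.062).

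Xcr1 (probe set 10597996), a receptor known from the CD8+ subset of DC, was at 8.56, 8.33 and 8.14 in WT and 9.19, 8.66 and 9.22 in Runx3-/- DC. The mutant values lay above all WT values by a small margin, since Runx3-/- 2 was at 8.66 and WT 1 at 8.56. Its log2 change of 0.68 (SE 0.18) was past the thresholds of the methods (unadjusted p = 0.0096) but not the adjusted one (0.156, 0.067 to 0.384 across alternatives). Without Runx3-/- 3, its highest array, the log2 change was 0.58 (limma adjusted p = 0.337). Of the 10 measured other markers of CD8+ DC, 2 passed as higher, Cadm1 and Irf8, where 0.856% of all tested probe sets did, and both calls were lost with the replicate block (adjusted p = 0.074 and 0.106). Wdfy4 and Batf3 of the same list had lower values without overlap between genotypes, at log2 changes of -0.49 (adjusted p = 0.051) and -0.47 (0.199). The mean over 12 markers was 8.02 to 8.15 in WT and 8.24 to 8.60 in Runx3-/- arrays, with Itgae and Gcsam below background. The part of those cells in Xcr1 was not tested.

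Ccr9 (probe set 10590620), the receptor of Ccl25 that directs cells to the thymus and gut and that plasmacytoid DC carry, had the widest spread among the mutant arrays of any measured receptor. It was at 7.07, 7.63 and 7.02 in WT and 7.68, 8.05 and 9.35 in Runx3-/- DC. Runx3-/- 3, the array with the high Siglech value, exceeded the WT mean by 2.11, while Runx3-/- 1 and 2 exceeded it by 0.44 and 0.81. The log2 change was 1.12 with all arrays (SE 0.44, unadjusted p = 0.041, adjusted p = 0.290) and 0.62 without Runx3-/- 3 (unadjusted p = 0.039, adjusted p = 0.355), and the adjusted value was 0.196 to 0.598 across alternatives. With the replicate block its unadjusted p was 0.058. The part of plasmacytoid DC in Ccr9 was not tested.

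Ccr6 and Ccrl2 were the receptors with lower values. Ccr6 (probe set 10441633), the receptor of Ccl20, was at 9.20, 9.29 and 9.80 in WT and 9.03, 8.68 and 8.98 in Runx3-/- DC, and the litters differed by -0.17, -0.61 and -0.81. The log2 change was -0.53 (SE 0.18, unadjusted p = 0.025, adjusted p = 0.236, 0.203 to 0.387 across alternatives), and it was -0.35 without WT 3. Ccrl2 (probe set 10597279), an atypical receptor that binds the attractant chemerin, was at 10.75, 10.93 and 10.79 in WT and 10.45, 10.50 and 10.33 in Runx3-/- DC. Its difference was small but even, at -0.30, -0.43 and -0.46 by litter, with a log2 change of -0.40 (SE 0.08, unadjusted p = 0.0029, adjusted p = 0.090, 0.061 to 0.248 across alternatives).

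The remaining receptors overlapped between genotypes. Ccr7 (probe set 10390763), which guides DC to T cell zones through Ccl19 and Ccl21, was at 10.04, 9.77 and 10.30 in WT and 10.46, 10.43 and 10.10 in Runx3-/- DC. WT 3 lay above Runx3-/- 3, so that 2 of 3 litters were higher, and the log2 change was 0.29 (95% interval -0.10 to 0.69, adjusted p = 0.446). Ccr3, the eotaxin receptor of eosinophils, changed place between litters (-0.17, 0.99 and 0.26), with an interval of -0.59 to 1.31. Cxcr3, the shared receptor of Cxcl9, Cxcl10 and Cxcl11, was at 6.92 to 7.56 in WT and 7.30 to 7.52 in Runx3-/- DC, and its log2 change was 0.09 with an interval of -0.33 to 0.51.

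**Figure D2:**
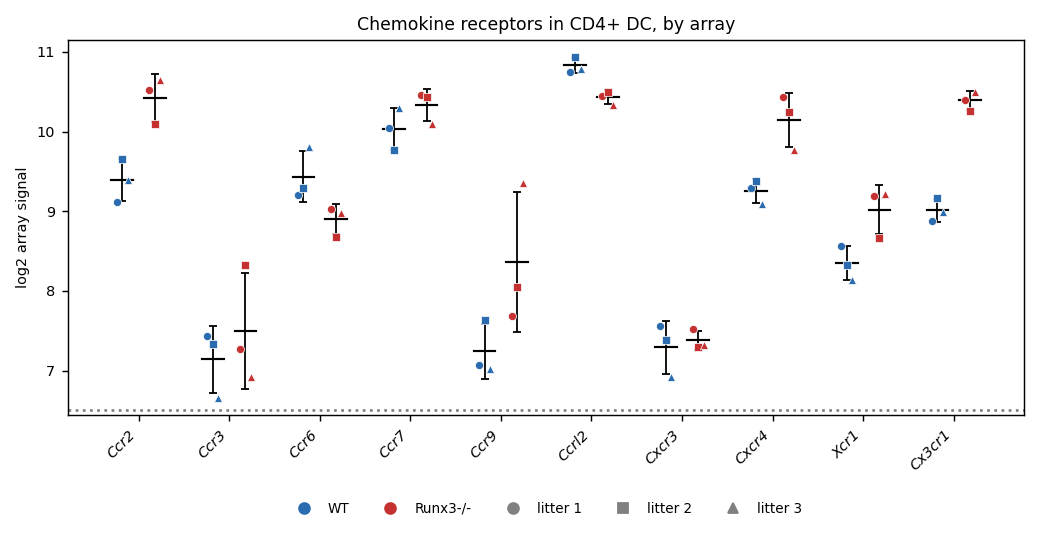
Log2 array signal (vertical axis) of the 10 measured receptors, 1 point per array (blue WT, red Runx3-/-, symbol by litter). Black marks are genotype means with SD (n = 3 arrays), and a dotted line lies at 6.5. The genotypes lie farthest apart for Cx3cr1 (means 9.01 and 10.39), and Ccr9 is drawn upward by Runx3-/- 3 at 9.35.

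Among the chemokines, Cxcl9, Cxcl10 and Cxcl11 were higher in all mutant arrays. These 3 interferon-induced chemokines attract activated T cells and lie next to each other in the genome. The RefSeq table annotates Cxcl11 of its C57BL/6J reference as a transcribed pseudogene, so the array reports its RNA and not a protein. Cxcl10 (probe set 10531415) was at 8.85, 8.90 and 8.87 in WT and 10.41, 9.56 and 9.98 in Runx3-/- DC. The SD was 0.03 among WT and 0.42 among mutant values, and the log2 change was 1.11 (SE 0.20, unadjusted p = 0.0014, adjusted p = 0.066, 0.036 to 0.237 across alternatives). It passed with array weights (0.036), with a prior that follows the mean level (0.047) and without Runx3-/- 2 (0.037).

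Cxcl9 (probe set 10531407) was at 9.99, 10.01 and 9.90 in WT and 11.73, 10.62 and 10.53 in Runx3-/- DC. Runx3-/- 1 exceeded the WT mean by 1.76 and the other mutants by 0.65 and 0.56. The log2 change was 0.99 (SE 0.32, unadjusted p = 0.019, adjusted p = 0.209) and 0.61 without Runx3-/- 1 (adjusted p = 0.092), with 0.092 to 0.469 across alternatives. Cxcl11 (probe set 10531420) was at 6.96, 7.11 and 6.98 in WT and 7.96, 7.40 and 8.06 in Runx3-/- DC, and Runx3-/- 2 had the smallest excess over the WT mean, 0.38, against 0.94 and 1.04. Its log2 change was 0.79 (SE 0.18, unadjusted p = 0.0042, adjusted p = 0.107, 0.027 to 0.327 across alternatives), with an adjusted p of 0.027 without Runx3-/- 2. The array with the high plasmacytoid markers, Runx3-/- 3, was the highest mutant for Cxcl11 only, and without it the changes of Cxcl9, Cxcl10 and Cxcl11 were 1.21, 1.11 and 0.66.

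Ccl22 and Cxcl16 were highest in Runx3-/- 1 and lowest in Runx3-/- 2, the order of Cxcl10. Ccl22 (probe set 10574213), a DC chemokine that attracts regulatory T cells, was at 6.87, 6.95 and 7.13 in WT and 8.25, 7.35 and 7.75 in Runx3-/- DC. Its genotypes did not overlap, with a log2 change of 0.80 (SE 0.22, unadjusted p = 0.011, adjusted p = 0.163, 0.074 to 0.438 across alternatives). Ccl17 and Cx3cl1, which lie beside it in gene order, were below background. Cxcl16 (probe set 10387890), a membrane-bound ligand of Cxcr6 that also takes up oxidised lipoprotein, was at 8.99, 8.74 and 9.27 in WT and 10.24, 9.43 and 9.78 in Runx3-/- DC. Its log2 change was 0.82 (SE 0.23, unadjusted p = 0.011, adjusted p = 0.164, 0.082 to 0.415 across alternatives). Over the 12 genes past the thresholds of the methods with the p of limma, Runx3-/- 1 was the highest mutant for 6, Runx3-/- 3 for 5 and Runx3-/- 2 for 1, and Runx3-/- 2 was the lowest for 8.

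**Figure D3:**
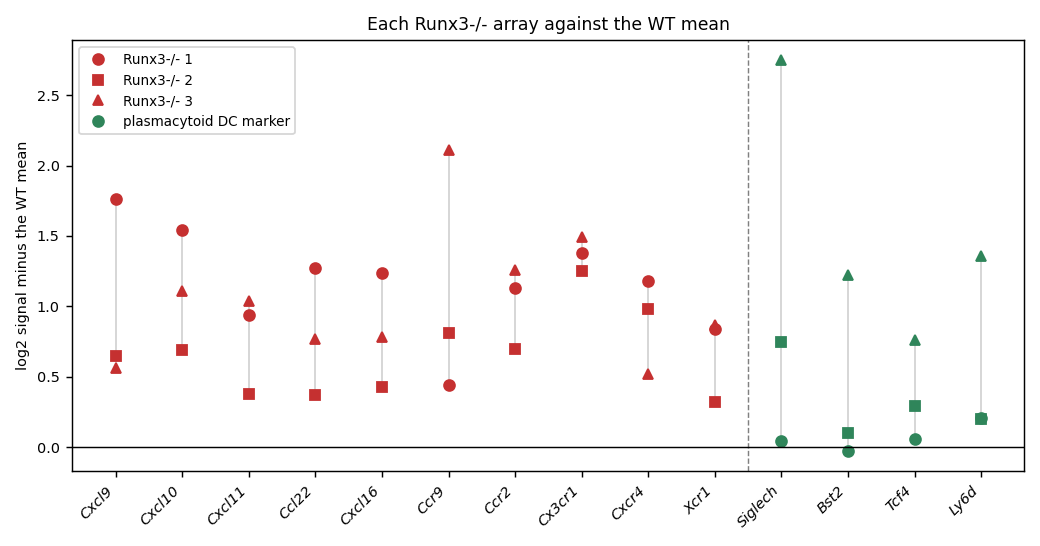
Log2 signal of each Runx3-/- array minus the WT mean (vertical axis) for 10 chemokine genes in red and 4 plasmacytoid DC markers in green, with the array as symbol. The 4 are a part of the 8 measured markers, and Ptprcap, not drawn, was lowest in Runx3-/- 3 among the mutants. Cd300c, also not drawn, had a lower mean in the mutants than in WT. Runx3-/- 3 is far above the other mutants for Siglech (2.75) and Ccr9 (2.11), whereas Runx3-/- 1 is highest for Cxcl9 (1.76), Cxcl10 (1.54), Ccl22 (1.27) and Cxcl16 (1.24).

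The chemokines Ccl5, Ccl9, Ccl6, Ccl3 and Ccl4 form a run in gene order, and for 5 of these 5 the highest WT value was that of WT 2. Ccl4 was below background in all WT arrays. The pattern was not particular to the run. WT 2 was the highest WT array for 8 of the 12 genes past the thresholds of the methods with the p of limma, Ccl9 among them. Ccl9 (probe set 10389214), which attracts myeloid cells through Ccr1, was at 8.07, 9.23 and 8.26 in WT and 9.41, 9.44 and 9.14 in Runx3-/- DC. WT 2 lay above Runx3-/- 3, so the genotypes overlapped, while each mutant exceeded its own littermate by 1.34, 0.21 and 0.88. The log2 change was 0.81 (SE 0.30, unadjusted p = 0.036, adjusted p = 0.276) with all arrays and 1.16 without WT 2 (adjusted p = 0.043) and 0.043 to 0.602 across alternatives. Without WT 1 it was 0.58. WT 2 was also the highest WT array in the mean of the monocyte markers, at 8.34, and of the red pulp markers, at 8.43, and their part in these values was not tested.

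Ccl6, a relative of Ccl9, was at 8.96, 10.38 and 9.0 in WT and 9.81, 9.52 and 9.41 in Runx3-/- DC. WT 2 exceeded every mutant, and the log2 change of 0.14 had an interval of -0.81 to 1.08. Ccl3, an inflammatory chemokine, was at 10.81, 11.77 and 9.95 in WT and 11.78, 11.16 and 11.11 in Runx3-/- DC, and its log2 change was 0.51 with an interval of -0.61 to 1.62. A log2 change of 1 lies inside both intervals. Ccl5, an attractant of T cells, was at 11.61, 11.85 and 11.51 in WT and 11.62, 11.50 and 11.11 in Runx3-/- DC, and its log2 change was -0.24 (95% interval -0.63 to 0.14, adjusted p = 0.518). Ccl4, at 5.92 to 6.48 in WT and 6.28 to 6.6 in Runx3-/- DC, and Ppbp, at 5.66 to 6.66 and 5.87 to 6.26, were too near background for a fold.

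Cxcl13 and Ccl25 complete the measured chemokines. Cxcl13 (probe set 10523359), which draws B cells into follicles through Cxcr5, was at 8.05, 7.74 and 8.69 in WT and 8.98, 8.61 and 8.84 in Runx3-/- DC. WT 3 lay above Runx3-/- 2, and litter 3 differed by 0.15 against 0.93 and 0.87 in the others. The log2 change was 0.65 (SE 0.25, unadjusted p = 0.038, adjusted p = 0.280, 0.112 to 0.591 across alternatives). Ccl25 (probe set 10569958), the thymic ligand of Ccr9, was at 7.22, 7.23 and 7.25 in WT and 6.88, 7.11 and 6.78 in Runx3-/- DC. Its values were close to background, and its log2 change was -0.31 (SE 0.10, unadjusted p = 0.018, adjusted p = 0.206, 0.091 to 0.475 across alternatives).

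**Figure D4:**
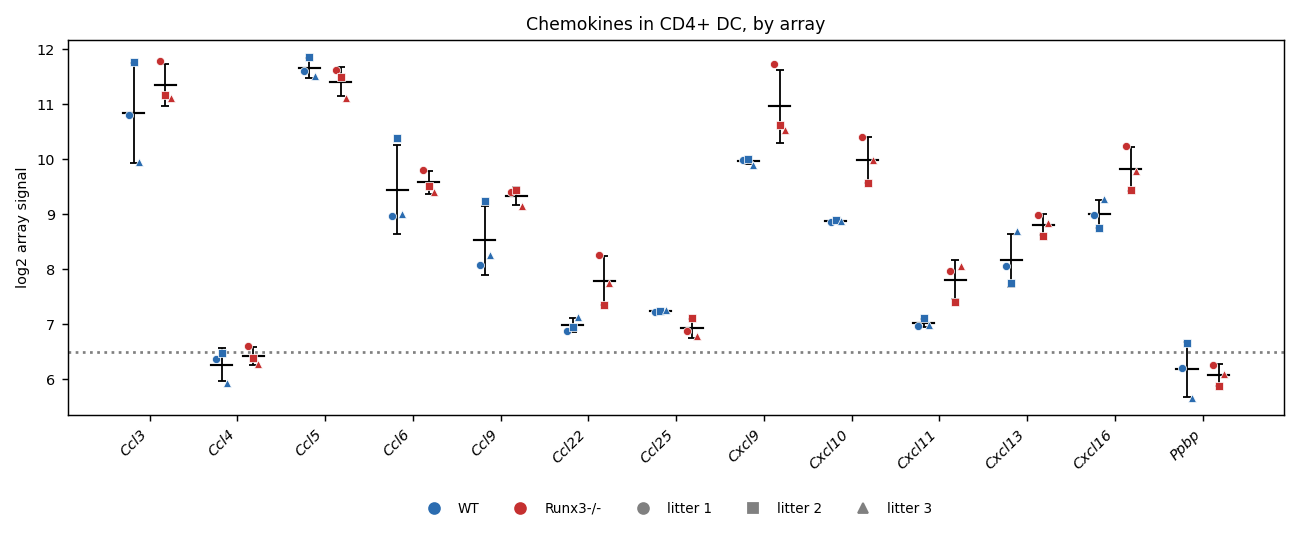
Log2 array signal (vertical axis) of the 13 measured chemokines, 1 point per array (blue WT, red Runx3-/-, symbol by litter). Black marks are genotype means with SD (n = 3 arrays), and a dotted line lies at 6.5. WT values of Cxcl9, Cxcl10, Cxcl11 and Ccl25 lie close together (SD 0.02 to 0.08), and the WT 2 square stands above both other WT arrays for Ccl3, Ccl6 and Ccl9.

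Ligands and receptors were then set side by side for 26 pairs known from textbooks. Both partners of each pair are among the genes here, and the pairs are not a full list. Ccl19 with Ccr7, for example, is left out. Both partners were measured for 5 pairs, only the ligand for 11, only the receptor for 5 and neither for 5. Of the receptors that were higher, Cx3cr1, Ccr2 and Cxcr4 had no measured ligand among the genes here, whereas Ccr9 (log2 change 1.12) stood beside a lower Ccl25 (-0.31). Xcr1, also higher, was in none of the 26 pairs. The higher chemokines Cxcl9 (0.99), Cxcl10 (1.11) and Cxcl11 (0.79) stood beside Cxcr3 at 0.09, and Cxcl13 and Cxcl16 were measured without Cxcr5 and Cxcr6.

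Promoters are shown for the gene that passed, Cx3cr1, for Ccr2, and for the neighbours Cxcl9 and Cxcl10, whose values were higher together. The RefSeq promoter table (GRCm38.p6) matched 33 of the 43 genes, 18 of them measured, and the 250 bases before the start site were searched on both strands. The motifs were TGTGGT, the core site of RUNX factors, an interferon response core of GAAA repeated after any pair of bases, and a kappa-B form of GGGA, any base, TT, any base and CC. Matches are in capitals.
Cx3cr1, chr9:120068297-120068546, minus strand: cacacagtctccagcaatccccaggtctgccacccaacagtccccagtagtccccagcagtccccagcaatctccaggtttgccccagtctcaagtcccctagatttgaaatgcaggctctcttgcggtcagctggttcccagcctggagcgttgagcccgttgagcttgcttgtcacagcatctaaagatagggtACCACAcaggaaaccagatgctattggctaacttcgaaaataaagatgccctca
Ccr2, chr9:124101933-124102182, plus strand: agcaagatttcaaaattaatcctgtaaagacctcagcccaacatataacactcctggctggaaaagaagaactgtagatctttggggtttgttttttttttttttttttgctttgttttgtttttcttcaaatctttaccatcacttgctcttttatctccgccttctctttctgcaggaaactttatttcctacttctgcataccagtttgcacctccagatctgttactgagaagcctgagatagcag
Cxcl9, chr5:92328080-92328329, minus strand: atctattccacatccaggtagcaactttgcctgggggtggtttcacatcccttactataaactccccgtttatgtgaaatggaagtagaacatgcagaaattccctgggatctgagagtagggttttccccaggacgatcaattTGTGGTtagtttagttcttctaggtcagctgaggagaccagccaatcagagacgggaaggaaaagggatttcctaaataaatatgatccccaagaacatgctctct
Cxcl10, chr5:92348890-92349139, minus strand: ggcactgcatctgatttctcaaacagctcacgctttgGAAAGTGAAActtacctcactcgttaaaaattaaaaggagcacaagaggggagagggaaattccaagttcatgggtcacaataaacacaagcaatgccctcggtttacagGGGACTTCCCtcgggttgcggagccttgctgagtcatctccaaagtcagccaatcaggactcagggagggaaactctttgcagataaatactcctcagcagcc

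Cx3cr1 held the RUNX core on the minus strand of its window, read there as ACCACA, 54 to 49 bases before the start. Cxcl9 held it on the plus strand, 106 to 101 bases before the start. Cxcl10 held an interferon response core at 213 to 204 and a kappa-B form at 103 to 94 bases before the start, and the Ccr2 window held none of these letters. Among the 18 measured genes the RUNX core was found in 4 (Ccl3, Cx3cr1, Cxcl9 and Cxcr3), where 14.0% of all 32851 windows held it. The interferon response core was found in 1 and the kappa-B form in 3 (Ccr3, Ccr6 and Cxcl10), against 2.98% and 0.980% of all windows. A match describes letters in a window and is no evidence of binding. The paper reports Runx3 at the Cx3cr1 locus, by chromatin immunoprecipitation sequencing of WT CD4+ DC. Whether a bound region covers the window shown here was not tested.

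Further receptors for attractants of leukocytes were mostly without a call. They include 2 chemokine receptors outside the 43 genes, Ackr1, with a log2 change of 0.15 (adjusted p = 0.408), and Ccr4, which was below background. Of 13 measured, 1 passed the adjusted threshold as higher and 0 as lower, where 0.856% and 0.700% of all tested probe sets did. The median log2 change was 0.08, and 4 were higher and 0 lower at an unadjusted p of at most 0.05. Of the 13, S1pr2, C3ar1 and Ptgdr2 were below background in all WT arrays and counted as measured through mutant arrays alone. S1pr2 is among the 4. Gpr183 (EBI2), the oxysterol receptor that positions CD4+ DC and B cells in the spleen, rose 1.5-fold, from 10.72 ± 0.08 to 11.31 ± 0.05 (SD, n = 3 each, limma adjusted p = 0.027, or 0.081 with the replicate block, 0.012 to 0.151 across alternatives). The platelet-activating factor receptor Ptafr had a log2 change of 0.41 (adjusted p = 0.066), the chemerin receptor Cmklr1 of 1.06 (0.075) and the sphingosine 1-phosphate receptor S1pr2, whose WT values were all below background, of 0.44 (0.167). Genes that carry chemokine signals inside the cell numbered 4 higher and 12 lower at an unadjusted p of at most 0.05 of 43 measured, with a median of -0.05. These counts stand beside the 5.59% and 10.3% of all tested probe sets at that p.

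Of 43 measured signalling genes 1 passed the adjusted threshold, as lower, where 0.700% of all tested probe sets did. That gene was Plcb2, a phospholipase C activated by G proteins. Plcb2 fell by 0.59 on the log2 scale (1.5-fold), from 11.84 ± 0.04 to 11.25 ± 0.01 (SD, n = 3 each, limma adjusted p = 0.020, or 0.084 with the replicate block, 0.0075 to 0.113 across alternatives). Grk5, a kinase that desensitises receptors, had a log2 change of 0.45 (adjusted p = 0.079), Rgs3, which shortens G protein signals, of -0.47 (0.087) and the G protein subunit Gng2 of -0.31 (0.113). With the block, or by the analysis of variance, 0 genes of either list passed an adjusted p of 0.05. At an unadjusted p of at most 0.05 the block gave 4 higher and 1 lower receptors and 5 higher and 10 lower signalling genes, and the analysis of variance gave 4 higher and 0 lower receptors and 4 higher and 15 lower signalling genes.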

How the data were processed

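Per the labels and the study's methods, the authors hybridised RNA of sorted CD4+ DC from 3 WT and 3 Runx3-/- mice to Affymetrix arrays, used Partek Genomics Suite for RMA (robust multichip average) after GC correction, and deposited log2 signals. RMA equalises the distributions of the arrays, which would mask a shift common to most genes, and it compresses folds near background. An exon array is named in the methods, but the probe set numbers belong to a gene-level design. The submitters' processing notes name mm9, and versions of their software are not given. The table held 35399 probe sets, of which the platform annotation gave 1 symbol for 21789, several for 1621 and none for 11989. All 43 genes had a probe set of their own, and their Entrez numbers matched the RefSeq gene table (GRCm38.p6) with 43 unchanged symbols.

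Testing covered probe sets that reached 6.5 in any array (19149 probe sets, 9922 named genes), as deposited, by limma 3.58.1 under R 4.3.3 (two-sided lmFit and eBayes with genotype as the only term, Benjamini-Hochberg over all tested probe sets). The fit was tested on simulated data. The one-way analysis of variance of the methods was an alternative. Other alternatives were the litter as a replicate block, quantile normalization, median centring, no filter, a filter in 3 arrays, a prior trend, array weights, the mean of a gene's probe sets, and leaving out each array. The labels number the litters, and deviations of littermates from their genotype means correlated at 0.158, 0.102 and 0.246 over tested probe sets. All 6 values were to be given for genes past either threshold or with separate genotypes, and for Ccr7, Cxcr4, Cx3cr1, Xcr1, Ccr2, Ccr6, Cxcr5, Ccl17, Ccl22, Ccl5 and Cxcl16. Of the other gene lists up to 4 genes with the smallest p are named. The genes and lists were chosen with earlier results of these data known. With 3 arrays per genotype, their number sets the precision. Further marker lists of T, NK, B, neutrophil, platelet, erythroid and stromal cells had 0 called genes of 2, 1, 7, 2, 2 and 1 measured for the first 6 by limma (0, 0, 5, 1, 0 and 0 at an unadjusted p of at most 0.05, where 15.9% of all tested probe sets passed) and 1 higher of 3 for stromal cells, where 1.56% of all tested probe sets were called. Of the 5 B cell genes 3 were higher and 2 lower. The stromal gene Cdh5 and the B cell gene Blnk, both higher, were below background in all WT arrays and counted as measured through mutant arrays alone.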

Additional observations from a re-analysis of the deposited data

How the results depend on the processing

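Among the chemokine genes the count past an adjusted p of 0.05, which was 1, was 0 under the replicate block (litter) or by the analysis of variance, 3 with a trend of the prior and 4 with array weights, and 0 to 3 when single arrays were left out (0 without WT 1 or Runx3-/- 3, 2 without WT 2, 3 without Runx3-/- 2). Cx3cr1 was in each set that was not empty. The count at the thresholds of the methods, 12, ranged from 8 to 14. Their median log2 change, 0.65, was 0.17 with no filter, which adds the 20 genes below background. The single call among further attractant receptors became 0 with the block and by the analysis of variance, 2 with the trend, 3 with array weights and 0 without any one array. For signalling genes it became 0 with the block and by the analysis of variance, 3 with array weights, and 0 to 1 without single arrays (1 without Runx3-/- 2). Runx3 kept a log2 change of -1.98 with the replicate block (adjusted p = 0.061), and it ranged from -2.03 to -1.96 without single arrays (adjusted p = 0.054 without WT 1). Of the 23 measured chemokine genes, Ccr3, Cxcr3, Ccl4, Ccl6 and Ppbp, none of them past a threshold, changed sign under some alternative, and the others kept their direction under all of them. Values near background, such as Ccl4, Ppbp and Ccl25, are the least certain, and with 3 mice per genotype the exact permutation test cannot give a two-sided p below 0.1. The cause of the lost calls was not tested.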

Other observations

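Genes that make, cut or bind chemoattractants had 0 of 12 measured members past an adjusted p of 0.05 (limma), where 1.56% of all tested probe sets did. At an unadjusted p of at most 0.05, 1 was higher and 2 were lower, where 5.59% and 10.3% of all tested probe sets were, with a median log2 change of 0.07. Cyp7b1 and Mmp9 among the 12, neither of them past that p, were below background in all WT arrays and counted as measured through mutant arrays alone. Mmp12, the macrophage elastase, which also cleaves chemokines, was at 11.77, 11.92 and 11.63 in WT and 10.91, 11.43 and 10.91 in Runx3-/- DC, a log2 change of -0.70 (SE 0.17, adjusted p = 0.116, 0.046 to 0.330 across alternatives). Adam17, a sheddase of membrane-bound chemokines, was at 11.53 to 11.56 in WT and 11.75 to 11.81 in Runx3-/- DC, a small but even log2 change of 0.24 (adjusted p = 0.144). Cklf, a chemokine-like factor, had a log2 change of -0.27 (adjusted p = 0.245) and its relative Cmtm7 of 0.42 (adjusted p = 0.346).

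Of 13 further chemokines with a probe set, 1 was measured. Ccl19, a ligand of Ccr7, was at 6.81, 7.03 and 7.21 in WT and 7.65, 7.26 and 7.65 in Runx3-/- DC. Its genotypes did not overlap, and its log2 change of 0.50 (SE 0.15, unadjusted p = 0.014) did not pass the adjusted threshold (0.186, 0.081 to 0.475 across alternatives).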
